A study of Mus musculus with 27 samples.

Results

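The Slc25 family holds the mitochondrial carriers, membrane proteins that move metabolites, nucleotides, cofactors and ions across the inner mitochondrial membrane. The members described here were all gene symbols of the expression tables that begin with Slc25a followed by a number, leaving out Slc25a32. They came to 43 of 23382 symbols. RNA-seq was available from 3 SHMT2 and 3 vector libraries, H3K4me3 ChIP-seq, for a histone mark of active promoters, from 3 SHMT2 and 2 vector libraries, and ERRBS, bisulfite sequencing of CpG-rich fragments that reads DNA methylation, from 3 of each. Both groups carry the VavP-Bcl2 transgene, which expresses Bcl2 from a promoter active in blood cells and predisposes mice to B-cell lymphoma. Fetal liver stem cells of these mice, taken at stage E13.5 of gestation, were infected with the retroviral vector MSCV-SHMT2 in the SHMT2 group or with the empty vector in the vector group, and were injected into irradiated wild type recipients. B220+ cells of the spleens, a B-cell fraction, were then profiled. The ERRBS labels name B220+ cells and the group, without this history or the spleen. Any cells of the wild type recipients carrying B220 would be in the same fraction, and the labels give no age for the recipients. The labels do not say whether each library was a separate animal, and a p-value here covers just the spread between libraries, part of which may be technical. The transfection label of ERRBS SHMT2 replicates 2 and 3 reads SHMT3 and SHMT4, and the sample titles, which say SHMT2, were followed.

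SHMT2, the enzyme raised in the model, works inside the mitochondrion, where it splits serine into glycine and a folate-bound 1-carbon unit. The carriers set what reaches and leaves that compartment. Some export fuel intermediates (citrate, malate, 2-oxoglutarate), others exchange ADP for ATP or bring in phosphate, and others supply cofactors, S-adenosylmethionine, glutathione, iron, or the glycine used for heme. Carriers are built in the cytosol and are threaded into the inner membrane by dedicated import complexes.

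Promoters of the 3 ADP/ATP carriers and of the 2-oxoglutarate/malate carrier Slc25a11 are shown because they set the paralogue that was near 0 in RNA and methylated (Slc25a31) beside the members with the smallest p-values. The sequences are RefSeq promoters of GRCm38.p6, 250 bases before to 50 after a gene's start, and every CpG dinucleotide, the site that DNA methylation uses, is in capitals. Slc25a31 lies at chr3:40708621-40708920, plus strand, Slc25a4 at chr8:46211013-46211312, minus strand, Slc25a5 at chrX:36795347-36795646, plus strand, and Slc25a11 at chr11:70646990-70647289, minus strand.
Slc25a31: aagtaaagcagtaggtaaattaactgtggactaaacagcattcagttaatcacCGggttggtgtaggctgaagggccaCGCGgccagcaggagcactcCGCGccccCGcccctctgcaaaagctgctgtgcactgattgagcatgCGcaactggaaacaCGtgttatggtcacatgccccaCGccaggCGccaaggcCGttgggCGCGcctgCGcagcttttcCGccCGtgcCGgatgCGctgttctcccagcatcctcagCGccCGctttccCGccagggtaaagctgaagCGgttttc
Slc25a4: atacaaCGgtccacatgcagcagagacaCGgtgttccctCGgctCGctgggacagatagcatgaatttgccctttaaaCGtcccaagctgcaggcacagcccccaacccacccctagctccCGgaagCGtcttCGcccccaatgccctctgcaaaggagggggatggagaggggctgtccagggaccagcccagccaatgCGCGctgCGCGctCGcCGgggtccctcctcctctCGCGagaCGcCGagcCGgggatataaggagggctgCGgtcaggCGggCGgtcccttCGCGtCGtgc
Slc25a5: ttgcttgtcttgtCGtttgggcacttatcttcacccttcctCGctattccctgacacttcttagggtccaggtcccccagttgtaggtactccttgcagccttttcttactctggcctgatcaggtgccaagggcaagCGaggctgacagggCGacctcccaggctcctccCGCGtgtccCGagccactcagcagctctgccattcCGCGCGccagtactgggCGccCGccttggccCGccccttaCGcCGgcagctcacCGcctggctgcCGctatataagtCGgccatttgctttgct
Slc25a11: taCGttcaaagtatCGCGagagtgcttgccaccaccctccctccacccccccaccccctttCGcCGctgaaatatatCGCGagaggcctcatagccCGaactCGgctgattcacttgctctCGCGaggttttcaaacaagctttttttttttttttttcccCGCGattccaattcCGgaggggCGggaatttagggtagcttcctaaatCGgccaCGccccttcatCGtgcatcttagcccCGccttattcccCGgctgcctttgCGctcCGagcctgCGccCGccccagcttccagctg
The window of Slc25a31 holds 22 CpGs, near the 25 of Slc25a4, the 18 of Slc25a5 and the 24 of Slc25a11, yet its calls were almost all methylated. At 19 cytosines inside it, ERRBS read 95.9, 95.1 and 95.3% in SHMT2 and 94.5, 94.3 and 93.3% in vector libraries. At 20 cytosines in the window of Slc25a4 it read 0.191, 0.245 and 0.0831% in SHMT2 and 0.106, 0.0896 and 0.216% in vector libraries. At 6 cytosines in the window of the X-linked Slc25a5 it read 0, 44.8 and 0.377% in SHMT2 and 37.8, 1.63 and 5.49% in vector libraries. The promoter of Slc25a31 was thus above those of both paralogues in every library, by nearly the whole scale beside Slc25a4 and by less beside Slc25a5 in SHMT2 replicate 2 and vector replicate 1.

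Of the 43 members, 34 were matched to the RefSeq promoter table by symbol. Those not in it include Slc25a2, Slc25a26, Slc25a27, Slc25a35, Slc25a37, Slc25a41, Slc25a44 and Slc25a46. Member promoters held a median of 17.5 CpGs, with a range of 1 (Slc25a34) to 47 (Slc25a40), against a median of 7 over all 27025 promoters. The GC box GGGCGG, on either strand, was present in 29 of 34 member promoters (85.3%) and in 35.9% of all promoters. The E-box CACGTG, read alike on both strands and bound by factors such as Myc, was in 6 of them (17.6%: Slc25a1, Slc25a13, Slc25a14, Slc25a31, Slc25a33 and Slc25a36) and in 7.24% of all. The letters CCGGAAG, a core of ETS-factor sites, were in 6 (17.6%: Slc25a3, Slc25a4, Slc25a17, Slc25a20, Slc25a25 and Slc25a38) and in 9.14% of all, and TCCCGC, a core of E2F sites, in 9 (26.5%) and in 20.1% of all. A match of letters is a description and not a binding site.

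Transcripts of the 43 members made up a small part of the B220+ transcriptome. TPM is a transcript level scaled for gene length and library size. These members summed to 3078, 2855 and 3059 TPM in SHMT2 libraries, against 2719.9, 4353 and 3244 TPM in vector libraries. That is 0.272 to 0.435% of all TPM. The groups overlapped, and vector replicate 2 stood above the other libraries. Slc25a38, Slc25a20, Slc25a36 and Slc25a3 supplied 65.0 to 72.8% of that sum in each library. In all, 32 members averaged at least 1 TPM over the 6 libraries and were tested, and 11 fell below that.

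**Figure D1:**
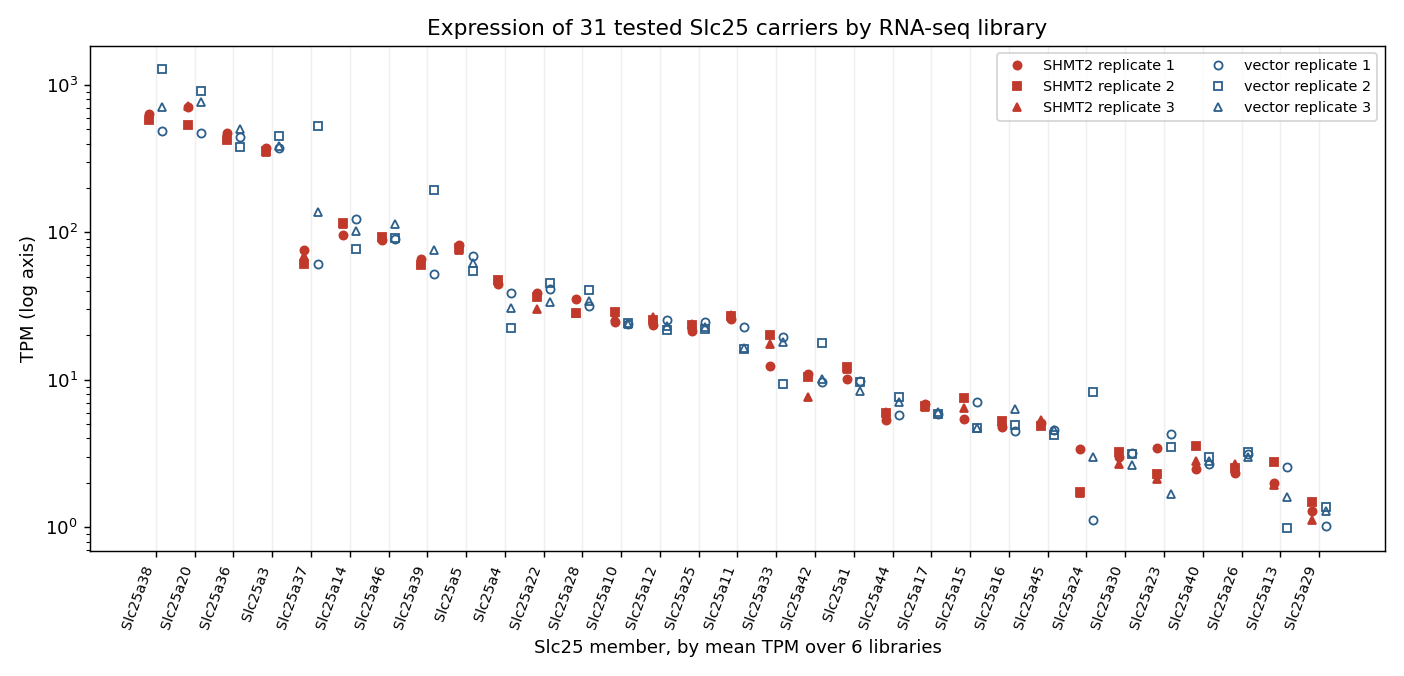
TPM (log axis) of 31 tested Slc25 carriers, ordered by their mean over 6 libraries; filled red symbols are the 3 SHMT2 libraries and open blue symbols the 3 vector libraries, 1 point per library. Most carriers keep to a narrow band, and vector replicate 2 (open square) stands apart for Slc25a37, where it reached 530.4 TPM, and for Slc25a38, Slc25a39 and Slc25a24.

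No carrier passed the test for a difference between SHMT2 and vector. limma, fitted on log2(TPM + 1) over 11117 genes, called 0 of 32 members at an adjusted p under 0.05, and 0 genes in all (0.0%). At an unadjusted p under 0.05, 3 of 32 members were higher (Slc25a11, Slc25a5 and Slc25a4, 9.38%) where 11.3% of all genes were, and 0 were lower where 5.4% of all genes were. All 3 SHMT2 libraries lay above all 3 vector libraries for 7 members (21.9%), and 16.9% of all genes did so. They lay below them for 1 member (3.12%), and 8.26% of all genes did so. These shares are near the background. The median log2 fold change, SHMT2 minus vector, was 0.011 over the members and 0.02 over all genes, and 16 of 32 members had a positive value, as had 53.2% of all genes. By an exact permutation test, 2-sided, 3 libraries against 3 cannot give a p below 0.1. Without vector replicate 1, limma called 3 of 32 members, Slc25a11 and Slc25a4 among them, and 845 of 11117 genes. Those not overlapping then numbered 11 higher (26.2% of all genes) and 7 lower (22.1% of all genes). Leaving out a library can keep or raise such counts but not lower them, and what lay behind the size of this rise was not tested. The lower ones also numbered 3 without SHMT2 replicate 1 (12.2% of all genes) and without vector replicate 3 (11.2%). After centring each library on its median, 4 members were higher without overlap (15.1% of all genes) and 3 lower (9.44%), and after TMM scaling 5 (a share of all genes below the 16.9% without it) and 3 (11.2%).

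The vector libraries were unlike one another in other cell types, which touches every comparison that follows. The mean log2 level of 17 erythroid markers was 2.85, 2.01 and 2.94 in SHMT2 and 2.10, 7.42 and 5.01 in vector libraries. Their summed level was 178, 76.6 and 201 TPM in SHMT2 and 85.6, 5657 and 1061 TPM in vector libraries. All 17 were highest in vector replicate 2, and none was at 0 in any library. A mean over macrophage and myeloid markers was 3.24, 3.36 and 2.89 in SHMT2 and 2.81, 5.14 and 5.03 in vector libraries, and the sum of 20 such markers 402, 417 and 307 TPM in SHMT2 and 242, 1443 and 1252 TPM in vector libraries, with none at 0. Vector replicates 2 and 3 were thus high in both, and vector replicate 1 lay close to the SHMT2 libraries. The 10 B-cell markers, Cd79a and Pax5 among them, were all above 100 TPM in each library, with sums of 9489.9, 9322 and 9257 TPM in SHMT2 and 9477, 7507 and 6885 TPM in vector libraries. In bulk libraries, fewer cells of a type and less RNA per cell cannot be told apart. Shmt2 itself had 244, 345 and 259 TPM in SHMT2 and 174, 223 and 157 TPM in vector libraries, without overlap, with a log2 fold change of 0.61 (SE 0.19) and a limma adjusted p of 0.216. A table of mouse genes need not count transcripts of the vector in full.

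Both expressed ADP/ATP carriers were higher in every SHMT2 library, as were 16.9% of all genes. These carriers exchange the ATP made in mitochondria for cytosolic ADP. Slc25a4, the isoform known from heart and muscle, had 44.8, 47.5 and 47.3 TPM in SHMT2 libraries, against 38.9, 22.3 and 30.6 TPM in vector libraries. Slc25a5, the isoform of dividing cells, had 82.7, 78.9 and 76.3 TPM in SHMT2 libraries, against 69.6, 54.4 and 62.2 TPM in vector libraries. In both genes the SHMT2 libraries lay close together, vector replicate 1 came nearest to them, and vector replicate 2 was lowest. Slc25a4 had a log2 fold change of 0.62 (SE 0.19), with means of 46.6 ± 1.52 TPM in SHMT2 and 30.6 ± 8.28 TPM in vector libraries (SD, n = 3 each), and Slc25a5 one of 0.35 (SE 0.11). Neither passed, with limma p of 0.0183 and 0.0166 unadjusted and 0.222 and 0.217 adjusted. Without vector replicate 1, Slc25a4 passed (log2 fold change 0.81, limma adjusted p 0.0408) and Slc25a5 did not (0.44 and 0.0551). Many other genes passed too in that setting, which keeps just the vector libraries high in erythroid and myeloid markers. Against vector replicate 1 alone, the library of low erythroid level, the values were 0.25 and 0.19. With a marker covariate, the mean log2 level over the erythroid and macrophage lists together, they were 0.30 and 0.21. The part of the erythroid and myeloid transcripts in the difference was otherwise not tested. Slc25a5 has near-identical processed copies elsewhere in the genome, so its level is uncertain where reads were split among them. The third paralogue, Slc25a31, the form of male germ cells, stood at 0.0858, 0.172 and 0.162 TPM in SHMT2 and 0, 0 and 0.102 TPM in vector libraries, at or near 0 in all.

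The 3 expressed carriers of di- and tricarboxylates were also higher in every SHMT2 library, as were 16.9% of all genes. Slc25a11, which exchanges 2-oxoglutarate for malate in the malate-aspartate shuttle, had 25.8, 27.1 and 27.3 TPM in SHMT2 libraries, against 22.7, 16.3 and 16.4 TPM in vector libraries. Its log2 fold change of 0.53 (SE 0.14) missed the threshold, with a limma p of 0.00985 unadjusted, lowest of the family, and 0.206 adjusted, and means of 26.7 ± 0.807 TPM in SHMT2 and 18.5 ± 3.67 TPM in vector libraries (SD, n = 3 each). Vector replicates 2 and 3 were lowest, and replicate 1 lay between them and the SHMT2 libraries. Without vector replicate 1 it passed (0.68, limma adjusted p 0.0264), as did many other genes. Against replicate 1 alone its value was 0.23, and with the marker covariate 0.31 (limma adjusted p 0.307). Slc25a11 overlaps Rnf167 on the genome, and since no source used here gives the strand setting of the counting, its level is uncertain to that extent. Slc25a1, which exports citrate for fatty acid synthesis, had 10.1, 12.1 and 11.9 TPM in SHMT2 libraries, against 9.86, 9.69 and 8.45 TPM in vector libraries, so that the nearest libraries of the groups differed by little. Slc25a10, the dicarboxylate carrier that exchanges malate or succinate for phosphate, had 24.8, 28.9 and 26.6 TPM in SHMT2 libraries, against 24.0, 24.4 and 23.8 TPM in vector libraries. Their log2 fold changes were 0.26 (SE 0.11) and 0.15 (SE 0.09), with limma adjusted p of 0.323 and 0.42, and after centring on the library median or TMM scaling the groups overlapped for both. Slc25a21, which carries 2-oxoadipate, averaged under 1 TPM, with 0.164, 0.0630 and 0.107 TPM in SHMT2 and 0.0639, 3.31 and 0.419 TPM in vector libraries, high in vector replicate 2 alone.

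**Figure D2:**
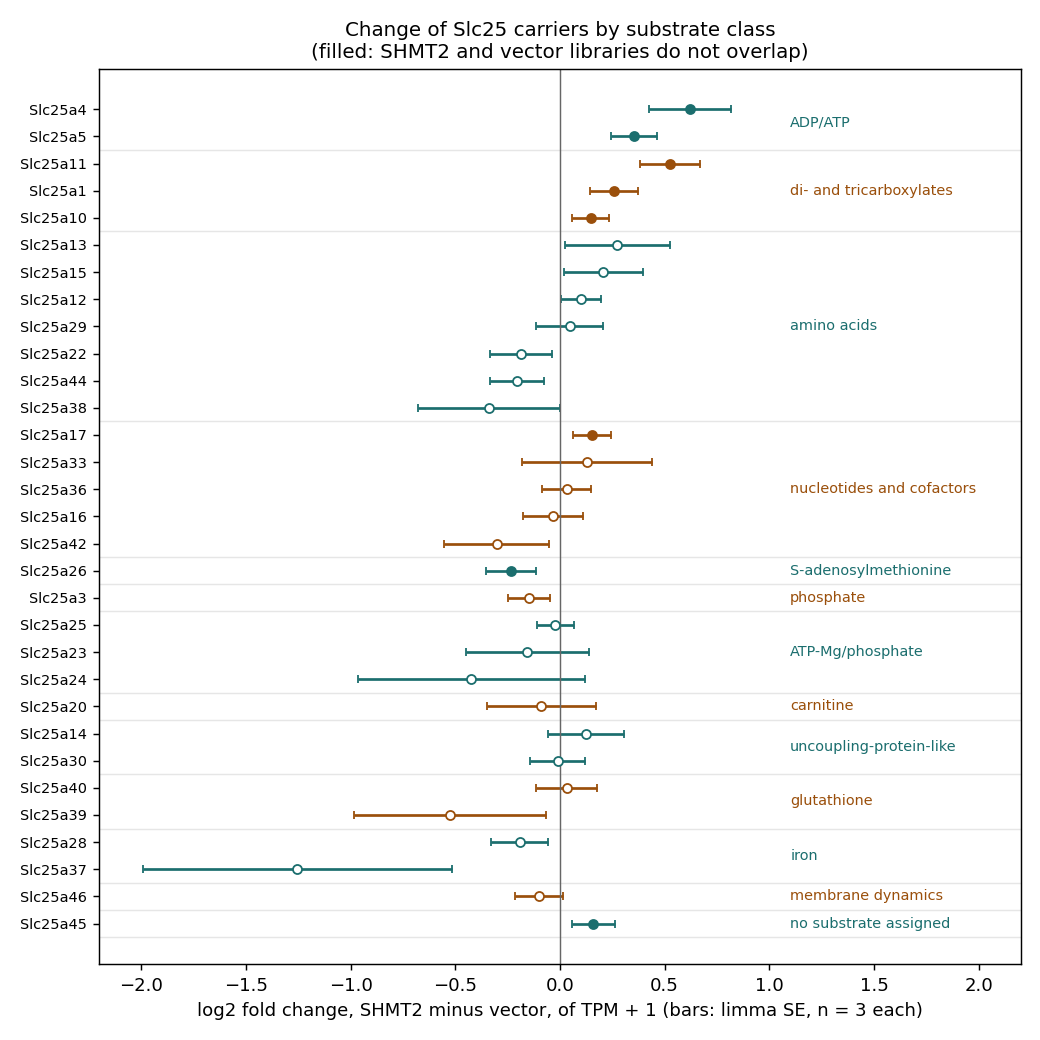
log2 fold change (SHMT2 minus vector, on TPM + 1) with its limma standard error for 31 tested carriers, grouped by substrate class (n = 3 libraries in each group). Filled points mark carriers whose SHMT2 and vector libraries do not overlap, as for both ADP/ATP carriers and all 3 tested di- and tricarboxylate carriers on the right and Slc25a26 on the left; Slc25a37 has the widest error bar.

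The carrier of S-adenosylmethionine, Slc25a26, was the one tested member lower in every SHMT2 library, as were 8.26% of all genes. It brings into mitochondria the methyl donor that cytosolic 1-carbon metabolism helps to make. Its level was low, at 2.34, 2.53 and 2.67 TPM in SHMT2 libraries, against 3.15, 3.25 and 2.97 TPM in vector libraries. The gap between the groups was small beside these levels, with a log2 fold change of −0.23 (SE 0.12), means of 2.51 ± 0.165 TPM in SHMT2 and 3.13 ± 0.142 TPM in vector libraries (SD, n = 3 each), and a limma p of 0.0985 unadjusted and 0.375 adjusted. It stayed below vector without overlap under centring and TMM scaling. Leaving out a replicate cannot make separate groups overlap, so that setting does not bear on the overlap. The values were −0.11 to −0.31 over all settings that tested it, the filter at a mean of 5 TPM leaving it out. Against vector replicate 1 alone, the vector library with low erythroid and myeloid markers, it was −0.24. Slc25a26 overlaps Lrig1, so reads of that gene may enter its count.

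Carriers of nucleotides and cofactors differed among themselves. Slc25a17, the peroxisomal member of the family, which carries CoA and other cofactors, had 6.86, 6.69 and 6.51 TPM in SHMT2 libraries, against 5.89, 5.82 and 6.01 TPM in vector libraries, without overlap and with a log2 fold change of 0.15 (SE 0.09, limma adjusted p 0.423). Slc25a36, a carrier of pyrimidine nucleotides, varied little, at 472, 424 and 449 TPM in SHMT2 and 440.2, 381 and 501 TPM in vector libraries. Its relative Slc25a33 had 12.4, 20.2 and 17.5 TPM in SHMT2 and 19.6, 9.31 and 18.0 TPM in vector libraries, and Slc25a42, the CoA carrier, 11, 10.4 and 7.69 TPM in SHMT2 and 9.71, 17.6 and 10.2 TPM in vector libraries. Both overlapped between the groups, Slc25a33 being lowest and Slc25a42 highest in vector replicate 2. Slc25a16, overlapping too, ranged from 4.51 to 6.35 TPM.

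The glycine carrier of heme synthesis was among the most abundant members. Slc25a38, known from yeast, zebrafish and human anaemia to supply mitochondrial glycine for the first step of heme synthesis, had 632, 580.3 and 596 TPM in SHMT2 libraries, against 486, 1286 and 709.9 TPM in vector libraries. Vector replicate 1 was the lowest library and vector replicate 2 the highest, 2.16 times the median of the other 5. Slc25a37, mitoferrin 1, the iron importer of developing red cells, had 76.4, 61.2 and 68.9 TPM in SHMT2 libraries, against 61.0, 530.4 and 137 TPM in vector libraries. Vector replicate 2 was 7.70 times the median of the others, and vector replicate 1 was level with the lowest SHMT2 library. Slc25a39, which imports glutathione and was first tied to heme synthesis, had 65.9, 60.2 and 63.5 TPM in SHMT2 libraries, against 51.8, 194 and 75.5 TPM in vector libraries, the same library being 3.06 times the median of the others. All 3 were highest in the library with the most erythroid transcripts.

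The log2 fold changes of Slc25a37, Slc25a38 and Slc25a39, −1.25, −0.34 and −0.53, missed the threshold (limma adjusted p 0.42, 0.625 and 0.575). Against vector replicate 1 alone all 3 turned round, to 0.17, 0.31 and 0.28, and with the marker covariate to 0.04, 0.25 and 0.24. Without vector replicate 2 they were −0.41, 0.04 and 0.01. Slc25a28, mitoferrin 2, the iron importer of most other cells, had 35.5, 28.6 and 28.4 TPM in SHMT2 and 31.6, 40.5 and 34.0 TPM in vector libraries and a log2 fold change of −0.19 (SE 0.14, limma adjusted p 0.491). Slc25a40, the paralogue of Slc25a39, had 2.49, 3.53 and 2.80 TPM in SHMT2 and 2.70, 3.00 and 2.80 TPM in vector libraries, and vector replicate 2 did not stand out.

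**Figure D3:**
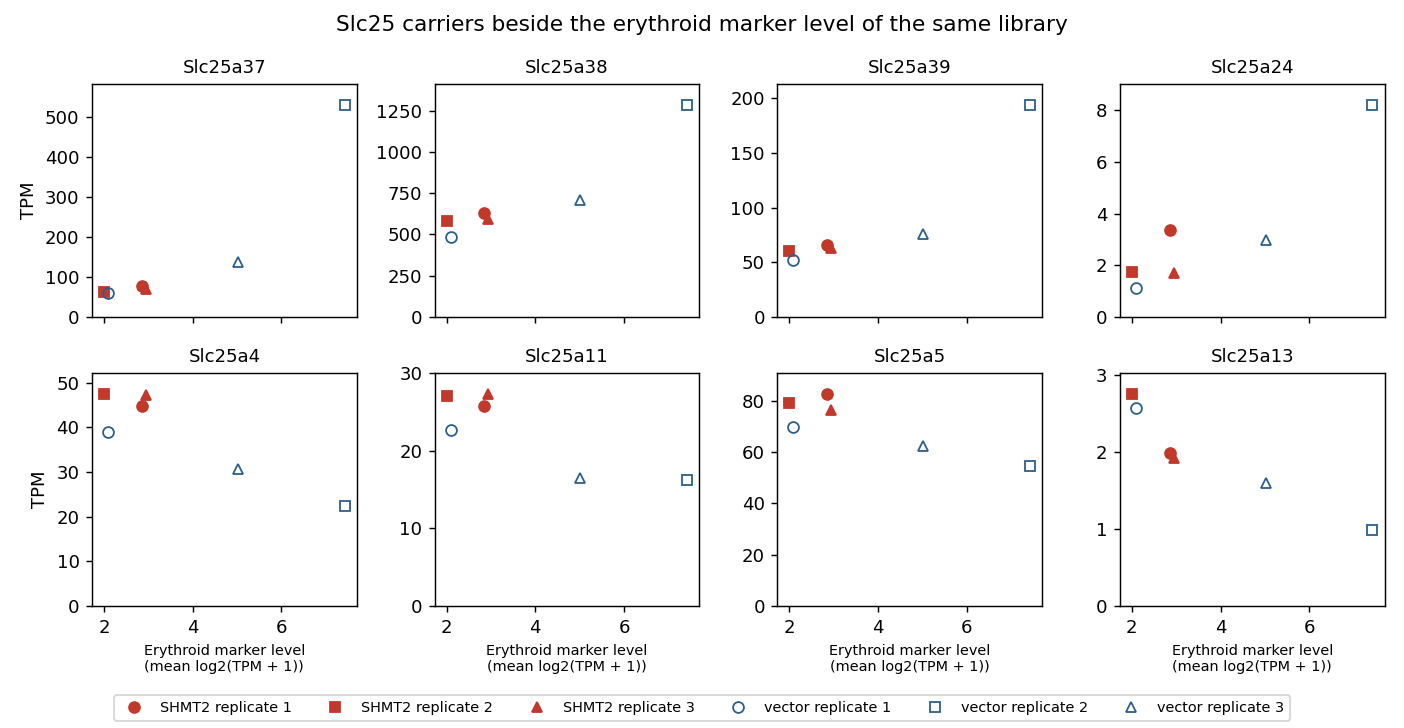
TPM of 8 Slc25 carriers (y axes, each from 0) beside the mean log2(TPM + 1) of 17 erythroid markers in the same library (x axis); filled red symbols are the 3 SHMT2 libraries and open blue symbols the 3 vector libraries. Vector replicate 2, with the highest erythroid level, was highest for Slc25a37, Slc25a38, Slc25a39 and Slc25a24 and lowest for Slc25a4, Slc25a11, Slc25a5 and Slc25a13.

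Carriers of amino acids other than Slc25a38 passed no test, and the groups overlapped for every one of them. Slc25a12 and Slc25a13, the aspartate/glutamate carriers that work with Slc25a11 in the malate-aspartate shuttle, had 23.5, 25.4 and 26.5 TPM in SHMT2 and 25.3, 21.6 and 23.2 TPM in vector libraries for the first and 1.98, 2.75 and 1.92 TPM in SHMT2 and 2.57, 0.988 and 1.60 TPM in vector libraries for the second. Slc25a12 was about an order of magnitude more abundant and overlapped between the groups, and Slc25a13 was lowest in vector replicate 2, 0.499 times the median of the others. Their log2 fold changes were 0.10 (SE 0.10) and 0.27 (SE 0.25), with limma adjusted p of 0.607 and 0.594. Slc25a22, a glutamate carrier, had 38.6, 36.3 and 30.2 TPM in SHMT2 and 41.6, 45.3 and 33.5 TPM in vector libraries. Slc25a44, which imports branched-chain amino acids, had 5.30, 5.99 and 6.02 TPM in SHMT2 and 5.78, 7.62 and 7.10 TPM in vector libraries and a log2 fold change of −0.21 (SE 0.13, limma adjusted p 0.446). In neither gene were the groups apart. Slc25a15, the ornithine carrier, and Slc25a29, a carrier of basic amino acids, had log2 fold changes of 0.21 (SE 0.19) and 0.05 (SE 0.16).

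The remaining abundant carriers serve energy metabolism. Slc25a3, which imports the phosphate for ATP synthesis and also copper, had 375, 358 and 353 TPM in SHMT2 libraries, against 372, 453 and 383 TPM in vector libraries. Its groups met within a few TPM, and its value was −0.15 (SE 0.10) on the log2 scale (limma adjusted p 0.469). The groups were apart, SHMT2 lower, after centring on the library median or TMM scaling. Slc25a20, which trades carnitine for the acylcarnitines of fatty acid oxidation, had 706, 539 and 716 TPM in SHMT2 libraries, against 471, 905 and 769 TPM in vector libraries. Vector replicate 1 was lowest and vector replicate 2 highest. The log2 fold change of Slc25a20, −0.09 (SE 0.26, limma adjusted p 0.88), turned positive without SHMT2 replicate 2 and without vector replicate 2. It also did so against vector replicate 1 alone and with the marker covariate.

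Among the ATP-Mg/phosphate carriers, which adjust the adenine nucleotide content of the matrix, Slc25a25 held at 21.3 to 24.7 TPM. Slc25a23 ranged from 1.68 to 4.31 TPM. Slc25a24 had 3.37, 1.74 and 1.69 TPM in SHMT2 and 1.12, 8.22 and 2.98 TPM in vector libraries, and vector replicate 2 was 4.72 times the median of the others. Slc25a14 and Slc25a30, relatives of the uncoupling proteins, had log2 fold changes of 0.13 (SE 0.18) and −0.01 (SE 0.13), and Slc25a46, a family member in the outer membrane linked to mitochondrial shape, −0.10 (SE 0.11). Slc25a45, which has no substrate in the classes used here, had 5.10, 4.83 and 5.30 TPM in SHMT2 and 4.54, 4.22 and 4.56 TPM in vector libraries, without overlap (log2 fold change 0.16, SE 0.10, limma adjusted p 0.454).

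The 11 members under 1 TPM on average included carriers known from other organs. Slc25a48 was listed at 0 in every library, and Slc25a41 in all but vector replicate 1, where it had 0.203 TPM. Slc25a34 ranged from 0.0371 to 0.180 TPM, with every SHMT2 library below every vector library, and with 1 added before the logarithm such levels cannot carry a fold change. Slc25a47, described in liver, had 0.412 to 1.18 TPM, Slc25a27, an uncoupling-protein-like carrier of the nervous system, 0.573 to 1.80 TPM, and Slc25a35 0.731 to 1.26 TPM. The glutamate carrier Slc25a18, the ornithine carrier Slc25a2 and Slc25a43 reached at most 0.780, 0.450 and 1.30 TPM.

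The machinery that inserts carriers was measured beside them. Of 13 import genes tested, 0 passed, 3 were higher at an unadjusted p under 0.05 (11.3% of all genes), and the groups did not overlap for 6 higher (46.2%, against 16.9% of all genes) and 1 lower (7.69%, against 8.26%), with a median log2 fold change of 0.13. Timm13, a small chaperone of the intermembrane space, had 63.3, 66.9 and 60.7 TPM in SHMT2 libraries, against 46.5, 37.4 and 36.7 TPM in vector libraries, a log2 fold change of 0.66 (SE 0.11) and a limma adjusted p of 0.204. Timm22, the pore of the carrier translocase, had 27.3, 31.4 and 30.7 TPM in SHMT2 libraries, against 21.8, 18.9 and 21.7 TPM in vector libraries (0.50, SE 0.10, limma adjusted p 0.204). In both, every vector library was below every SHMT2 library, vector replicate 1 included. Tomm22, a receptor of the outer membrane entry gate, had a log2 fold change of 0.38 (SE 0.09) and Tomm70a, the receptor for carriers, of 0.24 (SE 0.10), while Tomm20 was lower without overlap (−0.15, SE 0.09). A list of other mitochondrial transporters and carrier-related proteins had 14 genes tested. At an unadjusted p under 0.05, 2 of them were higher (Mtch1 and Mtch2, carrier-related proteins of the outer membrane, where 11.3% of all genes were) and 1 lower (Sfxn5, a sideroflexin of the inner membrane, where 5.4% were). Mtch2 had 17.5, 17.4 and 17.3 TPM in SHMT2 and 13.9, 13.6 and 13.7 TPM in vector libraries (log2 fold change 0.32, SE 0.08, limma adjusted p 0.204). Of the 3 outer membrane channels, Vdac2 had a log2 fold change of 0.27 (SE 0.10, limma adjusted p 0.255). It was the 1 higher at an unadjusted p under 0.05, where 11.3% of all genes were. Vdac2 and Vdac3 were higher without overlap (66.7%, against 16.9% of all genes), and Vdac1 overlapped between the groups.

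H3K4me3 marked the expressed carrier genes in both groups and was missing from several of the silent ones. In the authors' peak lists, 37 of 43 members had an H3K4me3 peak within 1 kb of a gene end in all 5 libraries, among them all 32 tested members, and 53.3% of 21631 protein-coding genes had one. Slc25a2, Slc25a18, Slc25a31, Slc25a47 and Slc25a48 had no peak in any library, and all 5 averaged under 1 TPM. Another 5 members under 1 TPM, Slc25a27, Slc25a34, Slc25a35, Slc25a41 and Slc25a43, had a peak in all 5 libraries. No member had a peak in every library of one group and in none of the other, which 0.24% of genes had for SHMT2 only and 0.00925% for vector only. Ranked by the authors' fold enrichment within each list, the member peaks had median percentiles of 84.2, 83.8 and 80.2 in SHMT2 and 79.9 and 81.9 in vector libraries. The start of Slc25a11 was near the top, with percentiles of 97.7, 98.7 and 99.4 in SHMT2 and 97.6 and 98.8 in vector libraries. The start of Slc25a24 was low, with percentiles of 42.4, 8.29 and 32.4 in SHMT2 and 16.4 and 26.0 in vector libraries. Slc25a21, whose span takes in Pax9, had a peak of fold 3.70 in SHMT2 replicate 5 and 4.70 in SHMT2 replicate 6, among the weakest of those lists, and none in the other 3 libraries. Without SHMT2 replicate 4 it is the 1 member with a peak in one group alone.

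Gene ends with this mark had low methylation and most ends without it had high methylation. Over windows of 1 kb on either side of a gene end, 34 autosomal member ends with H3K4me3 had a median level of 0.268% and 11 without it 88.1%. Over all genes the medians were 0.37% (11416 ends) and 76.0% (4786 ends). The member ends without the mark were annotated far ends apart from the starts of Slc25a31, Slc25a34 and Slc25a48. Those with it were mostly annotated starts, so mark and position in the gene cannot be told apart here. Of the 34, 28 were under 5% in every ERRBS library. The exceptions were the starts of Slc25a21, Slc25a20 and Slc25a24, the far end of Slc25a34, and ends of Slc25a35 and Slc25a27. Of the 11, 10 were above 45% in every library. The eleventh was the start of Slc25a48, which had 8.33, 13.4 and 8.08% in SHMT2 and 13.3, 10.9 and 11% in vector libraries over 38 cytosines, low methylation without the mark and without a listed transcript.

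Slc25a31 was the reverse, with 90.8, 90.1 and 92.4% in SHMT2 and 91.4, 94.4 and 91.6% in vector libraries over 35 cytosines within 1 kb of its start. Slc25a34 had its peak at the annotated far end, where methylation was 17.1, 16.9 and 23.4% in SHMT2 and 25.6, 9.63 and 23.0% in vector libraries, while its start, with no peak, had 77.6, 74.2 and 82.5% in SHMT2 and 78.8, 82.4 and 77.4% in vector libraries. The groups overlapped at both ends of Slc25a34 and at the start of Slc25a31.

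Between SHMT2 and vector, 13 autosomal member ends had intermediate methylation (5 to 95%) and were tested, and 0 passed (adjusted p under 0.05 and at least 10 points), as did 0 of 5984 ends in all (0.0%). At an unadjusted p under 0.05 there were 0 member ends and 2.77% of all. Fisher's exact test on summed libraries, which leaves out the spread between them, gave 8 of the 13 an unadjusted p under 0.05, as it did 3577 of the 5984 ends, and 0 of the 13 both an adjusted p under 0.05 and 10 points. Every SHMT2 library lay above every vector library at 0 of 13 member ends (5.01% of all ends) and below at 2 (2.67% of all). These were the far end of Slc25a1, with 92.6, 91.6 and 93.0% in SHMT2 and 94.7, 96.2 and 94.1% in vector libraries (difference −2.61 points, adjusted p 0.807 by the quasi-binomial model), and the far end of Slc25a47, with 87.5, 87.2 and 81.3% in SHMT2 and 91.0, 90.2 and 91.5% in vector libraries (−5.56 points, adjusted p 0.807, on as few as 72 calls in a library). In RNA, Slc25a1 was higher in every SHMT2 library without passing (limma adjusted p 0.323), and its groups overlapped after centring or TMM scaling. A link to its methylation was not tested. Its own start, 1.21, 0.788 and 1.58% in SHMT2 and 2.50, 1.23 and 1.62% in vector libraries, was almost unmethylated in both groups.

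The largest difference among these ends rested on 1 library. At the start of Slc25a21, 53 cytosines gave 18.8, 41.8 and 12.5% in SHMT2 and 17.4, 12.8 and 13% in vector libraries, a difference of 9.96 points (adjusted p 0.807 by the quasi-binomial model) that was 1.26 without SHMT2 replicate 2. At the end of Slc25a35 with the higher coordinate, vector replicate 2 stood out in the other direction, with 14.0, 7.0 and 12.5% in SHMT2 and 8.63, 24.3 and 11.6% in vector libraries. The difference of −3.69 points became 1.06 without that library. Some other ends varied by at least 10 points within a group, such as the far end of Slc25a42 with 77.3, 58.9 and 79.9% in SHMT2 and 71.8, 80.8 and 74.9% in vector libraries and that of Slc25a22 with 64.3, 54.8 and 55.0% in SHMT2 and 46.5, 57.9 and 55.7% in vector libraries.

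**Figure D4:**
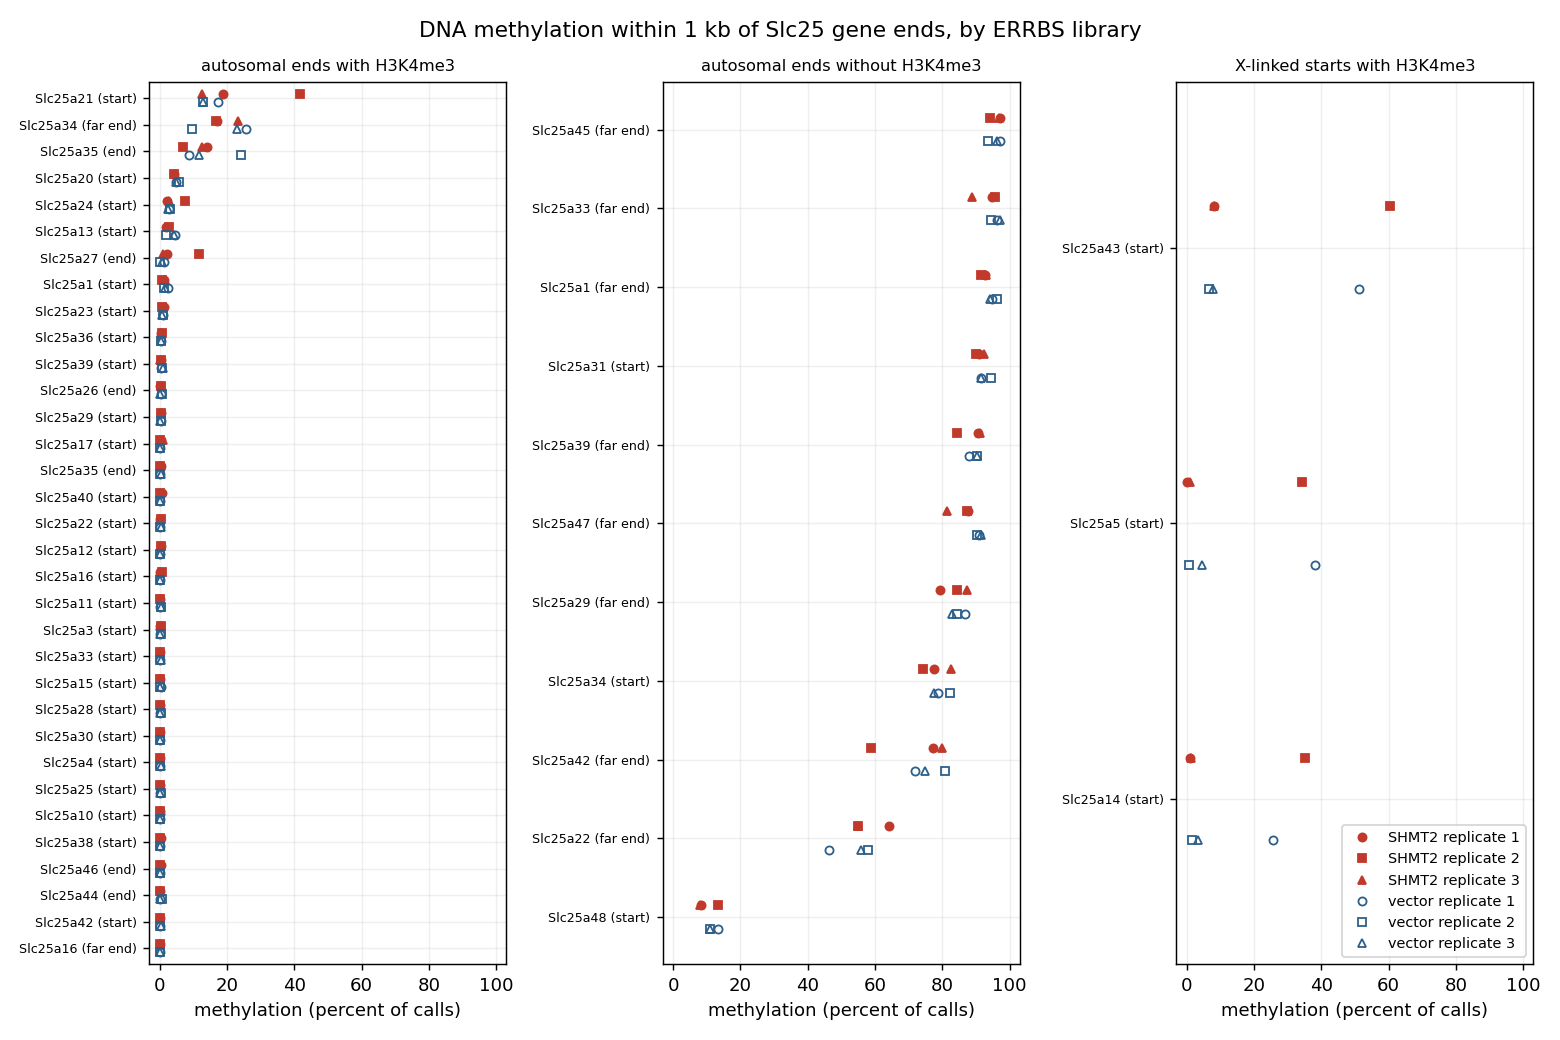
Methylation (percent of calls within 1 kb of a gene end, at least 3 cytosines) at Slc25 gene ends in each ERRBS library; filled red symbols, upper in each row, are the 3 SHMT2 libraries and open blue symbols the 3 vector libraries. Autosomal ends with H3K4me3 lie near 0 apart from a few such as Slc25a21, ends without it lie above 45% apart from the start of Slc25a48, and the X-linked starts are high in SHMT2 replicate 2 and vector replicate 1.

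The 3 X-linked carriers varied widely in methylation within both groups. At its start Slc25a5 had 0.181, 34.4 and 1.11% in SHMT2 and 38.1, 0.594 and 4.47% in vector libraries. Slc25a14 had 0.926, 35.1 and 1.21% in SHMT2 and 25.8, 1.54 and 3.33% in vector libraries, and Slc25a43 8.29, 60.4 and 8.17% in SHMT2 and 51.2, 6.63 and 7.96% in vector libraries. In all 3, SHMT2 replicate 2 and vector replicate 1 were high and the other 4 libraries low, and the X chromosome was left out of the methylation test. In RNA, Xist, the transcript of the inactive X chromosome of females, had 30.5, 2.17 and 1625 TPM in SHMT2 and 2461, 412 and 1635 TPM in vector libraries, and the Y-linked gene Ddx3y 75.4, 50.3 and 7.96 TPM in SHMT2 and 0, 69.2 and 17.2 TPM in vector libraries. Both varied widely within each group. The RNA of Slc25a5 was 78.9 and 76.3 TPM in SHMT2 replicates 2 and 3, of which the one had the lowest Xist level of the 6 libraries and the other a high one. Slc25a14 had 95.9, 116 and 114 TPM in SHMT2 and 124, 77.6 and 102 TPM in vector libraries, with a log2 fold change of 0.13 (SE 0.18), and overlapped between the groups.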

How the data were processed

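RNA-seq levels are TPM as deposited by the authors, 1 table per library; the submitters' processing notes name STAR and mm10, no source used here names the tool behind TPM, and TPM keep no depth. ERRBS tables hold, per the file headers, for each cytosine the count of calls covering it (at least 10, mean 63.0 to 71.6) and the deposited percent read as C and as T (Bismark and Bowtie2 named in the processing notes); PCR calls are not independent molecules. H3K4me3 peaks were deposited per library (MACS2, BWA in the notes), with the authors' fold enrichment ratio and −log10 q-value, used only within a list; no source used here says if inputs served as controls. H3K4me1 and input libraries were not analysed here.

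Members, classes, marker lists and named genes (the 12 smallest p-values, plus members chosen by role) were set with earlier results of these data known. Genes averaging 1 TPM or more were tested on log2(TPM + 1), so fold changes of low genes are understated, with limma 3.58.1 in R 4.3.3 (no block, Benjamini-Hochberg over all genes). Gene-end methylation summed calls within 1 kb of GRCm38.p6 gene ends at cytosines covered in all 6 libraries, with at least 3 cytosines and a mean of 5 to 95%, tested by quasi-binomial regression with limma's variance squeezing. An end was marked if any H3K4me3 peak overlapped it. Both tests were checked on simulated data. 1 member is counted in the totals and not otherwise reported here. No 2 RNA libraries shared an identical non-zero value of any gene.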

Additional observations from a re-analysis of the deposited data

How the results depend on the processing

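Over the settings tried for expression (another pseudocount, filters, scaling, a marker covariate, libraries left out), the count of members passing limma's adjusted threshold stayed 0 except without vector replicate 1. Leaving out 1 library at a time gave 0 to 3 members passing and 0 to 845 genes. At an unadjusted limma p under 0.05, 0 to 3 members were lower, against 5.4% of all genes with every library kept. Without overlap, 7 to 11 members were higher (19.2 to 26.2% of all genes) and 1 to 7 lower (9.36 to 22.1%). The median log2 fold change was −0.027 to 0.046. With vector replicates 2 and 3 left out together, 14 of 32 members were higher (43.2% of all genes) and 6 lower (24.8%) without overlap, the median was 0.026 and 6 genes passed; the lone vector library is then assumed to vary like the others. Without overlap, centring on the library median gave 4 members higher and 3 lower, and TMM scaling gave 3 lower. The shares of all genes beside these counts are given above. TMM scaling gave a median of −0.019. Without a filter on low values the median was −0.055. The marker covariate gave 2 passing genes, and the causes were not tested.

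With the marker covariate the sign turned for Slc25a37 (0.036), Slc25a38 (0.25), Slc25a39 (0.24), Slc25a13 (−0.10) and Slc25a20 (0.35). Against vector replicate 1 alone it turned for these, at 0.17, 0.31, 0.28, −0.16 and 0.46, and for Slc25a12 (−0.0093). Leaving out 1 library at a time, Slc25a38 ranged from −0.66 to 0.037, Slc25a39 from −0.93 to 0.013 and Slc25a20 from −0.36 to 0.11, turning without vector replicate 2, and Slc25a20 also without SHMT2 replicate 2 (0.045).

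No pairing by replicate number was visible, though so few libraries cannot show its absence. Deviations of same-numbered RNA libraries correlated at −0.42, −0.33 and −0.06, and of ERRBS libraries at −0.16, −0.38 and −0.04. With the replicate number as a block, 0 members passed and 3 were higher at an unadjusted p under 0.05, as without it. A block leaves the values of the libraries as they are, so it cannot change the counts without overlap.

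For methylation, 0 member ends passed under any setting; Fisher's exact test after pooling the libraries, blind to their spread, called 747 ends in all. Median levels were 0.231% at marked and 78.6% at other ends with 500 bases on either side, 86.6% at other ends with at least 5 cytosines, and, leaving out 1 library, 0.255 to 0.295% and 87.5 to 88.7%. Leaving out 1 library also turned single ends: Slc25a35 ranged from −6.80 to 1.06 points, Slc25a42 from −7.74 to 2.77 and the far end of Slc25a34 from −5.18 to 2.79. Leaving out each H3K4me3 library gave 37 members with a peak in all and 0 to 1 with a peak in one group alone. Depth is unknown for RNA.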

Other observations

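Carriers listed under other symbols lay outside the rule for members. Mcart1, now called Slc25a51 and known as the mitochondrial NAD carrier, had 22.2, 26.9 and 27.9 TPM in SHMT2 libraries, against 26.1, 78.5 and 37.8 TPM in vector libraries. It was highest in vector replicate 2 and next in vector replicate 3, the libraries with the highest erythroid and myeloid levels. Slc25a37, Slc25a38 and Slc25a39 had the same order, and so had other carriers such as Slc25a3, Slc25a20 and Slc25a44. Ucp2, an uncoupling protein, had 571, 598 and 607 TPM in SHMT2 libraries, against 609, 812 and 629 TPM in vector libraries. It was lower without overlap, as were 8.26% of all genes (log2 fold change −0.19, SE 0.13, limma adjusted p 0.457).

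RNA-seq and ERRBS libraries of the same group and number did not all match in X-linked measures. Vector replicate 1 had the highest Xist level in RNA, 2461 TPM, and high methylation at the X-linked starts. SHMT2 replicate 2 had the lowest Xist level in RNA, 2.17 TPM, and in ERRBS it was 1 of the 2 libraries with high methylation at the starts of Slc25a5, Slc25a14 and Slc25a43. RNA and methylation were therefore set side by side by group and not by library.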
